A study of Mus musculus with 8 samples.

Results

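The genes described here carry fatty acids into the muscle fibre, store them as triglyceride and oxidise them in mitochondria. They were chosen by gene symbol from a list of 44 genes that was drawn up with earlier results of these data known. Of these, 34 were measured by a microarray probe set assigned to 1 gene symbol, out of 14860 genes measured that way in the whole series. Each of the 34 had a single such probe set. Of the other 10, the genes Acsl3, Cpt1b, Acadl, Hadhb, Acaa1a, Acot1 and Lipe had only probe sets assigned to several symbols, which are not read here as any of them, and no probe set was listed for Acsl1, Mlycd or Acad11. The long-chain enzymes Cpt1b and Acadl and the main muscle synthetase Acsl1 are therefore not covered by the results.

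Fatty acids reach muscle from lipoprotein triglyceride, cross the sarcolemma with the help of membrane and binding proteins, and are activated to acyl-CoA. Acyl-CoA is either esterified and kept in lipid droplets or moved into mitochondria as acylcarnitine, a step that malonyl-CoA inhibits. In the matrix, beta-oxidation shortens the chain in repeated cycles of dehydrogenation, hydration, dehydrogenation and thiolysis, and the first dehydrogenation passes electrons to ubiquinone through the electron transfer flavoprotein. Many genes of the pathway are known targets of the PPAR and ERR nuclear receptors and of the coactivator PGC-1alpha.

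RNA came from the tibialis anterior, a shin muscle made mostly of fast fibres, of 8-week-old male mice lacking ATF4 in muscle (ATF4 mKO), an alteration that both groups carried. ATF4 is a transcription factor of the stress response; the Cre line that made the deletion is not named in the sources used. Control muscles, always the left, received the empty plasmid pcDNA3. The other muscles, always the right, received pCMV-FLAG-Gadd45a, which makes tagged Gadd45a from the cytomegalovirus promoter. Gadd45a is a small nuclear protein that muscle induces during atrophy. Both were taken on day 7, and 4 arrays were made of each group. Plasmid and side cannot be told apart, nor can Gadd45a and the making of any tagged protein. Nothing in the labels ties each array to a mouse of its own, and a p-value here covers array-to-array spread that may be only technical. All values are log2 intensities as deposited, and the number of arrays limits their precision.

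Gadd45a read 7.85, 7.75, 7.66 and 7.80 on control arrays 1 to 4 and 10.35, 10.18, 10.46 and 10.34 on Gadd45a arrays 1 to 4, a 5.93-fold higher signal that does not separate plasmid RNA from the mouse's own. Atf4 read 6.95 ± 0.09 and 7.49 ± 0.10 (SD, n = 4 each); every mouse carried its deletion, so it gives no check of genotype. The skeletal actin gene Acta1 lay between 12.09 and 12.26 on all 8 arrays, but 2 of 5 measured fibre markers were lower with Gadd45a plasmid, creatine kinase Ckm by 0.51 and myoglobin Mb by 0.78 on the log2 scale. Markers of other cells also differed, where 10.3% of all probe sets fell and 10.8% rose at an adjusted p under 0.05. The 11 measured endothelial markers included 9 that fell and 0 that rose, and their summed linear signal was 1577 to 1776 on control arrays and 1258 to 1326 on Gadd45a arrays. Of 8 adipocyte markers 4 fell and 0 rose, with sums of 675 to 682 against 541 to 564. Among 11 macrophage markers 8 rose and 0 fell (1703 to 1871 against 2768 to 3350), and among 7 fibroblast markers 5 rose and 0 fell (4316 to 4494 against 4690 to 5138). Slow-fibre markers rose in 4 of 5 cases and fell in 1 (1915 to 2499 against 3757 to 4289), fast-fibre markers fell in 3 of 8 and rose in 0 (32672 to 35087 against 29291 to 30265), and satellite cell markers rose in 2 of 5 and fell in 0 (296 to 310 against 329 to 365). In such bulk RNA, fewer cells of a type and less RNA per cell cannot be told apart. Control array 1 stood apart from the other controls on the second principal component, which held 12.6% of the variance (-23.2 against 4.2 to 11.6).

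Genes of fatty acid use were mostly lower in muscles given Gadd45a plasmid. Of the 34 measured genes, 19 fell and 2 rose at an adjusted p under 0.05, and 13 did not pass (limma over all 16755 probe sets, two-sided, Benjamini-Hochberg adjustment). The 19 make up 55.9% of the genes measured, where 10.3% of all probe sets fell. The share that rose over all probe sets was 10.8%, and both shares are the background for the counts by role and by list below. Because 31 of the 34 genes were at or above the median brightness of the array, the brighter probe sets are a closer background, and of these 12.8% fell and 17.5% rose. The genes below the median brightness, Slc27a1, Slc27a4 and Dgat2, all fell. The median log2 fold change (Gadd45a over control plasmid) was -0.31 for the 34 genes and -0.07 for all probe sets. For the brighter probe sets it was 0.02. Every change was under 2-fold: at the extremes Acacb fell by 0.73 and Acsl4 rose by 0.57 on the log2 scale. In 16 genes all 4 Gadd45a arrays lay below all 4 control arrays, and in 3 all lay above, where 13.8% and 13.1% of all probe sets did so.

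**Figure D1:**
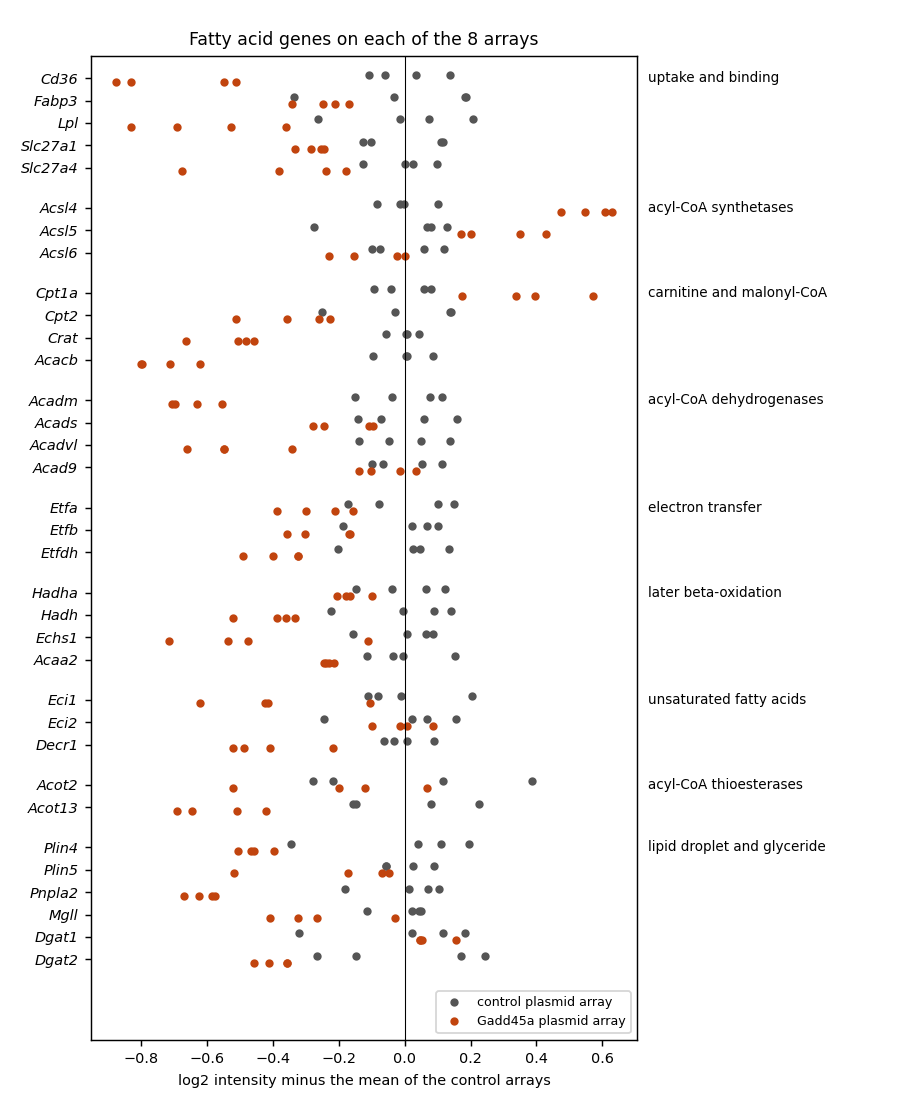
Each of the 34 measured genes on each array, as log2 intensity minus the mean of the 4 control arrays (x axis), with genes grouped by role (y axis). Grey points are control plasmid arrays and orange points Gadd45a plasmid arrays; the orange points of Cd36, Crat, Acacb, Acadm and Pnpla2 lie wholly to the left of the grey ones, and those of Acsl4, Acsl5 and Cpt1a wholly to the right.

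The mean over the 34 genes was 7.64, 7.73, 7.75 and 7.72 on control arrays 1 to 4 and 7.45, 7.37, 7.47 and 7.42 on Gadd45a arrays 1 to 4. The groups did not overlap on this mean, and control array 1 was the control nearest to the Gadd45a arrays. For 19 of the 34 genes it was the lowest control, and for 14 Gadd45a array 2 was the lowest Gadd45a array. The number of genes that fell depended on the arrays used. It was 12 when Gadd45a array 1 or Gadd45a array 2 was omitted. With both arrays of a number omitted it was 12 for number 1, 7 for number 2 and 9 for number 4. In the other 7 refits of this kind it ran from 13 to 17. The falls of Cd36, Crat, Acacb, Acadm, Acadvl, Acot13 and Pnpla2 and the rise of Acsl4 passed in each of 12 refits, 8 without a single array and 4 without both arrays of a number.

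**Figure D2:**
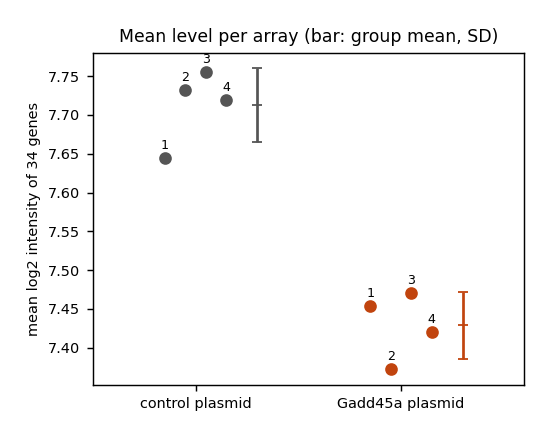
Mean log2 intensity of the 34 genes (y axis) on each array, labelled with its sample number, with the group mean and SD beside the points. The control arrays lie between 7.64 and 7.75 and the Gadd45a arrays between 7.37 and 7.47.

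Promoter stretches are printed here because nuclear receptors of the PPAR and ERR families bind elements built on the hexamer AGGTCA, and genes of both directions carry it. The sequences are from RefSeq (GRCm38.p6), read 5′ to 3′ on the gene's strand, all upstream of the listed transcription start, with AGGTCA or its reverse complement TGACCT in capitals.
Cd36, chr5:17836064-17836146, minus strand: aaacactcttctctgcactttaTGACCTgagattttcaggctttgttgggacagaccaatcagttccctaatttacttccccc
Acadm, chr3:153944832-153944893, minus strand: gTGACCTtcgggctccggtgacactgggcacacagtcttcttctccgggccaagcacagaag
Acadvl, chr11:70015455-70015570, minus strand: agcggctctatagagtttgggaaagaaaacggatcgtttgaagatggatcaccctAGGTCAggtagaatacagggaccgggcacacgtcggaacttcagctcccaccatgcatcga
Echs1, chr7:140116444-140116559, minus strand: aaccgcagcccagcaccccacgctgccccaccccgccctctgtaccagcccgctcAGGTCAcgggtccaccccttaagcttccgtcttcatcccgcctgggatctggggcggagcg
Cpt1a, chr19:3323152-3323267, plus strand: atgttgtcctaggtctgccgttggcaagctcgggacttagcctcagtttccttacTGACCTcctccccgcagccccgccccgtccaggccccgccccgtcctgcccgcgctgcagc
The first of these genes transports fatty acids, the next 3 encode enzymes of beta-oxidation, and all 4 fell, while Cpt1a rose. The hexamer starts 228 bases before the start of Cd36, 249 before that of Acadm, 87 before that of Acadvl, 83 before that of Echs1 and 94 before that of Cpt1a. Of the 34 genes, 26 had a promoter in the table, from 250 bases before to 50 after the start. The hexamer was found on either strand in 9 of the 32 promoters of these genes (28.1%) and in 16.3% of all promoters in the table. The 9 belong to 8 genes, of which 5 fell, 1 rose and 2 did not pass. The fall not printed above is Acacb, whose match lies after the start, while the printed stretches lie upstream. The direct repeat that PPAR binds (DR1, the hexamer repeated with 1 base between) was searched only as an exact match. It was found in 0 of the 26 and in 0.0396% of all promoters. A match this rare cannot show whether these genes lack such an element. The longer TCAAGGTCA, which contains the hexamer, was found in the promoter of Acsl6 alone among the 26 and in 0.423% of all promoters.

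Genes of uptake and binding fell in 4 of 5 cases. Cd36, the fatty acid translocase of the plasma membrane, read 10.08, 10.28, 10.18 and 10.03 on control arrays 1 to 4 and 9.59, 9.26, 9.63 and 9.31 on Gadd45a arrays 1 to 4. Every Gadd45a array lay below every control, and the signal was 61.8% of the control level (log2 fold change -0.69, SE 0.10, adjusted p = 0.00157). Lpl, the lipoprotein lipase that frees fatty acids at the vessel wall, read 8.72, 9.05, 9.19 and 8.96 and then 8.45, 8.29, 8.62 and 8.15. It too fell without overlap, by 0.60 (SE 0.13, adjusted p = 0.00909), and missed the threshold without the arrays numbered 2 (adjusted p = 0.0657) or those numbered 4 (0.0537). Cd36 is also made by endothelium and adipocytes and Lpl by adipocytes. The endothelial and adipocyte marker sums given above were lower on every Gadd45a array, while the macrophage sum was higher. The part of any of these cells in both falls was not tested.

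The fatty acid transport proteins, which couple uptake to activation, were lower by less. Slc27a1, the form most abundant in muscle, fell by 0.28 (SE 0.08, adjusted p = 0.0326), from 5.74 to 5.99 on control arrays to 5.54 to 5.62 on Gadd45a arrays. Slc27a4 fell by 0.37 (SE 0.11, adjusted p = 0.0426), from 5.67 to 5.89 to 5.12 to 5.62. The groups did not overlap for either gene. Of the 12 refits, Slc27a1 kept its call in 2 (without control array 2 or 3) and Slc27a4 in 3 (without control array 4, Gadd45a array 4 or both). Fabp3, the cytosolic fatty acid binding protein of muscle and heart, read 10.96, 11.48, 11.48 and 11.26 on control arrays 1 to 4 and 10.95, 11.12, 11.04 and 11.08 on Gadd45a arrays 1 to 4. Control array 1 lay among the Gadd45a arrays and the difference of -0.24 (SE 0.12) did not pass on all arrays (adjusted p = 0.161). Of the 12 refits Fabp3 passed in 1, without control array 1 (0.0215), and its adjusted p reached 0.398 in the others.

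Of 3 measured acyl-CoA synthetases, which activate fatty acids, 1 rose and 0 fell. Acsl4, which prefers arachidonic acid and other polyunsaturated fatty acids, read 7.38, 7.46, 7.57 and 7.45 on control arrays 1 to 4 and 8.01, 7.94, 8.10 and 8.08 on Gadd45a arrays 1 to 4. It rose to 148.0% of the control level without overlap (log2 fold change 0.57, SE 0.07, adjusted p = 0.000594). Acsl5, found on mitochondria and endoplasmic reticulum, read 7.01 to 7.41 on control and 7.45 to 7.71 on Gadd45a arrays, higher on all 4, with a difference of 0.29 (SE 0.11, adjusted p = 0.08) that did not pass. Acsl6, known best from brain and muscle, differed by -0.10 (SE 0.08, adjusted p = 0.392) with overlapping groups. Macrophages also express Acsl4, and the summed macrophage markers were higher on every Gadd45a array; their part in the rise was not tested.

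Among the carnitine acyltransferases, Cpt1a rose while Cpt2 and Crat fell. Cpt1a, the outer-membrane carnitine palmitoyltransferase of liver and many other cells, read 6.77, 6.60, 6.65 and 6.75 on control arrays 1 to 4 and 7.09, 7.03, 6.86 and 7.26 on Gadd45a arrays 1 to 4. The rise was 0.37 (SE 0.09, adjusted p = 0.0201) with no overlap, and adjusted p was 0.0536 without control array 2, 0.0516 without Gadd45a array 1, and 0.0662, 0.093 and 0.0712 without the arrays numbered 1, 2 and 4. The muscle form, Cpt1b, was not measured by the rule used here. Cpt2, the inner-membrane enzyme that turns acylcarnitine back into acyl-CoA, differed by -0.34 (SE 0.11, adjusted p = 0.0481). Its groups overlapped, control array 1 (7.51) lying below Gadd45a array 3 (7.54), and of the 12 refits its call held in 2, both without control array 1.

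Crat, the carnitine acetyltransferase that buffers mitochondrial acetyl-CoA, read 8.75, 8.81, 8.85 and 8.81 on control arrays 1 to 4 and 8.35, 8.14, 8.32 and 8.30 on Gadd45a arrays 1 to 4. The controls spanned little and all Gadd45a arrays lay below them (log2 fold change -0.53, SE 0.07, adjusted p = 0.000829). Acacb, the mitochondrial acetyl-CoA carboxylase that makes the malonyl-CoA inhibiting carnitine palmitoyltransferase, had the lowest log2 fold change of the 34 genes. Its values were 6.97, 7.07, 7.08 and 7.15 with control plasmid and 6.44, 6.27, 6.35 and 6.27 with Gadd45a plasmid. The signal was 60.1% of the control level (-0.73, SE 0.07, adjusted p = 0.000189). Mlycd, the decarboxylase that removes malonyl-CoA, was among the genes with no probe set listed.

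The acyl-CoA dehydrogenases carry out the first step of each cycle of beta-oxidation and are specialised by chain length. Acadm, for medium chains, read 9.51, 9.62, 9.77 and 9.73 on control arrays 1 to 4 and 9.02, 8.95, 9.10 and 8.96 on Gadd45a arrays 1 to 4. All Gadd45a arrays lay below the controls, at 63.8% of the control level (log2 fold change -0.65, SE 0.08, adjusted p = 0.000555). Acadvl, for very long chains, read 8.35, 8.63, 8.54 and 8.44 and then 7.94, 7.83, 8.15 and 7.94, again without overlap. It fell by 0.52 (SE 0.09, adjusted p = 0.00353). Acads, for short chains, differed by -0.18 (SE 0.09, adjusted p = 0.157) and Acad9, better known as an assembly factor of complex I, by -0.05 (SE 0.08, adjusted p = 0.626), both with overlapping groups.

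Electrons from these dehydrogenases pass to the flavoprotein subunits Etfa and Etfb and then to Etfdh, which reduces ubiquinone. Etfdh read 8.28, 8.61, 8.53 and 8.51 on control arrays 1 to 4 and 8.16, 7.99, 8.16 and 8.08 on Gadd45a arrays 1 to 4, a fall by 0.39 (SE 0.09, adjusted p = 0.0128) without overlap. It lost its call without the arrays numbered 2 (adjusted p = 0.0844), 3 (0.0531) or 4 (0.0732). The subunits lay near the threshold. Etfa differed by -0.27 (SE 0.09, adjusted p = 0.0674), and passed after quantile normalization (0.0483). Of the 12 refits it passed in 1, without control array 2 (0.0437), and its adjusted p reached 0.272 in the others. Etfb differed by -0.25 (SE 0.09, adjusted p = 0.0664), and passed after quantile normalization (0.0492). Of the 12 refits Etfb passed in 1, without control array 1 (0.0251), and its adjusted p reached 0.214 in the others.

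**Figure D3:**
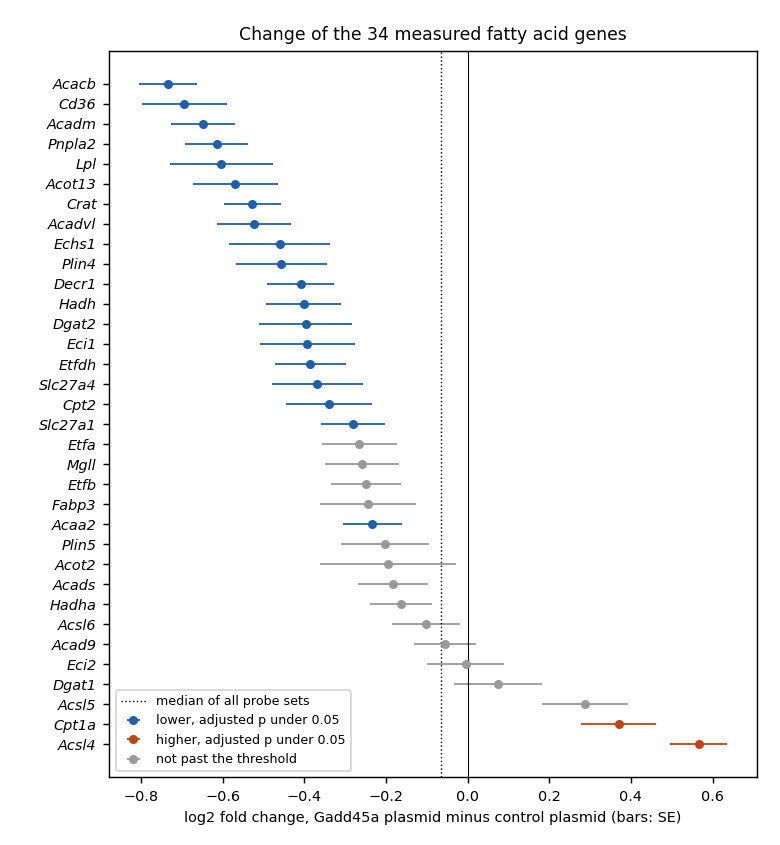
Log2 fold change of each of the 34 genes with Gadd45a over control plasmid (x axis), with its moderated standard error as a bar. Blue genes fell and orange genes rose at an adjusted p under 0.05, grey genes did not pass, and the dotted line marks the median of all probe sets, -0.065.

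The remaining steps of the cycle fell in 3 of 4 measured genes. Hadh, the hydroxyacyl-CoA dehydrogenase for shorter chains, read 7.28, 7.59, 7.49 and 7.64 on control arrays 1 to 4 and 6.98, 7.14, 7.16 and 7.11 on Gadd45a arrays 1 to 4. It was lower on every Gadd45a array, by 0.40 in the mean (log2 fold change -0.40, SE 0.09, adjusted p = 0.0137), and missed the threshold without the arrays numbered 2 (0.0707), 3 (0.0505) or 4 (0.074). Echs1, the hydratase for short chains, fell by 0.46 (SE 0.12, adjusted p = 0.0271). One Gadd45a array, number 3 at 7.26, lay within the control range of 7.22 to 7.46, and of the 12 refits the call held in 3, without control array 1, Gadd45a array 3 or both arrays numbered 3.

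Acaa2, the mitochondrial thiolase that releases acetyl-CoA, was tightly grouped with Gadd45a plasmid, from 8.24 to 8.27, below the controls at 8.37 to 8.64. Its fall by 0.23 (SE 0.07, adjusted p = 0.0467) passed in 1 of the 12 refits, the one without control array 1. Hadha, the alpha subunit of the trifunctional protein that works on long chains, differed by -0.16 (SE 0.08, adjusted p = 0.15) with overlapping groups.

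Unsaturated fatty acids need isomerases and a reductase to enter the cycle. The reductase Decr1 read 8.00, 8.04, 8.12 and 7.97 on control arrays 1 to 4 and 7.81, 7.51, 7.62 and 7.54 on Gadd45a arrays 1 to 4. It fell without overlap, by 0.41 (SE 0.08, adjusted p = 0.00759), and missed the threshold without the arrays numbered 2 (0.0566). The mitochondrial isomerase Eci1 fell by 0.39 (SE 0.12, adjusted p = 0.0402), with Gadd45a array 3 (7.47) at the level of the lowest control, and of the 12 refits its call held in 2, both without that array. Eci2, an isomerase of peroxisomes and mitochondria, read 6.74 ± 0.17 with control and 6.74 ± 0.08 with Gadd45a plasmid (SD, n = 4 each; adjusted p = 0.977 with limma).

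The thioesterases, which split acyl-CoA into free fatty acid and coenzyme A, were represented by Acot13 and Acot2. Acot13, associated with mitochondria, read 9.18, 9.55, 9.41 and 9.17 on control arrays 1 to 4 and 8.81, 8.68, 8.90 and 8.63 on Gadd45a arrays 1 to 4. Every Gadd45a array lay below every control, at 67.4% of the control level (log2 fold change -0.57, SE 0.10, adjusted p = 0.00492). Acot2, the mitochondrial enzyme for long chains, spread widely within each group, from 6.90 to 7.56 and from 6.66 to 7.25, and its difference of -0.19 (SE 0.17) did not pass (adjusted p = 0.42). Acot2 closely resembles its neighbour Acot1, so its probes may read both.

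Of 6 measured genes of lipid droplets and triglyceride turnover 3 fell and 0 rose. Pnpla2, the adipose triglyceride lipase that starts droplet breakdown, read 7.65, 7.93, 7.84 and 7.90 on control arrays 1 to 4 and 7.20, 7.25, 7.25 and 7.16 on Gadd45a arrays 1 to 4. The Gadd45a arrays were close together and wholly below the controls, at 65.3% of their level (log2 fold change -0.61, SE 0.08, adjusted p = 0.000673). Mgll, the monoglyceride lipase of the last step, differed by -0.26 (SE 0.09, adjusted p = 0.0719). Of the 12 refits Mgll passed in 1, without Gadd45a array 3 (0.0219), and its adjusted p reached 0.257 in the others. Plin4, a droplet coat protein abundant in fat and muscle, read 6.75, 6.59, 6.21 and 6.66 and then 6.09, 6.08, 6.05 and 6.16. It fell by 0.46 (SE 0.11, adjusted p = 0.0187) with a narrow gap between the groups, and missed the threshold without the arrays numbered 1 (0.088), 2 (0.0911) or 4 (0.0824).

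Plin5, which tethers droplets to mitochondria in oxidative tissue, differed by -0.20 (SE 0.11, adjusted p = 0.2) with overlapping groups. Of the enzymes that complete triglyceride synthesis, Dgat2 fell by 0.40 (SE 0.11, adjusted p = 0.0362), from 5.69 to 6.20 on control arrays to 5.50 to 5.60 on Gadd45a arrays, a call kept in 3 of the 12 refits, without control array 2, control array 3 or both arrays numbered 3. Dgat1 differed by 0.07 (SE 0.11, adjusted p = 0.64). Pnpla2, Plin4 and Dgat2 are also expressed by adipocytes, whose defining marker Adipoq fell by 0.73; the part of those cells was not tested.

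Whether members of a family changed unequally was tested on the difference of 2 genes within each array, which compares changes and not levels. Of 18 pairs chosen, 8 had both genes measured. At the threshold 0 pairs passed after Benjamini-Hochberg adjustment over the 8 pairs, and 2 had an unadjusted exact p under 0.05; with 4 arrays a group, a pair can pass only if most of the 8 reach the smallest p. The difference of Acadm minus Acads was 3.32 ± 0.18 with control and 2.86 ± 0.14 with Gadd45a plasmid (SD, n = 4 each), a shift of -0.47 (exact two-sided permutation p = 0.0286, the smallest that 70 labellings allow, adjusted p = 0.114). Eci1 minus Eci2 shifted by -0.39, from 0.83 ± 0.12 to 0.45 ± 0.14 (SD, n = 4 each), with the same exact p and adjusted p. In both pairs the groups did not overlap, with lower differences on all 4 Gadd45a arrays. Dgat1 minus Dgat2 shifted by 0.47 (adjusted exact p = 0.171) and Pnpla2 minus Mgll by -0.36 (adjusted exact p = 0.152). The remaining pairs were Plin4 and Plin5 (-0.26), Acadm and Acadvl (-0.12), Slc27a1 and Slc27a4 (0.09) and Etfa and Etfb (-0.02), with adjusted exact p from 0.229 to 0.8.

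**Figure D4:**
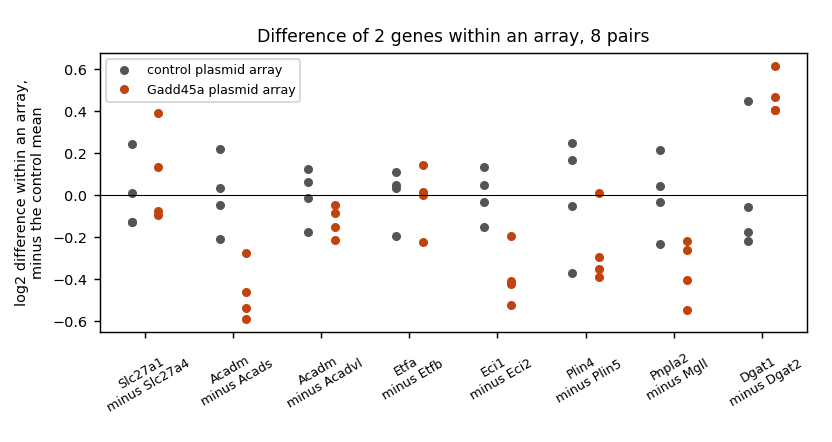
Difference of log2 intensity between both genes of a pair within each array, minus the mean of that difference on the control arrays (y axis), for 8 pairs (x axis). Grey points are control and orange points Gadd45a plasmid arrays; the groups lie apart for Acadm minus Acads and Eci1 minus Eci2.

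Among 22 measured regulators of fatty acid use, 11 fell, 1 rose and 10 did not pass, with a median log2 fold change of -0.32. Ppargc1a, which encodes PGC-1alpha, read 9.32, 9.43, 9.51 and 9.32 on control arrays 1 to 4 and 8.66, 8.66, 8.85 and 8.69 on Gadd45a arrays 1 to 4 (log2 fold change -0.68, SE 0.08, adjusted p = 0.000372). All Gadd45a arrays lay below the controls. The other PGC-1 coactivator gene in the list, Ppargc1b, named after its value was seen, differed by 0.03 (adjusted p = 0.755). AMP-activated protein kinase, which inhibits acetyl-CoA carboxylase, was lower in the subunits Prkab2 (-0.76, SE 0.13, adjusted p = 0.00287) and Prkaa2 (-0.63, SE 0.07, adjusted p = 0.000358). Named after their values were seen, its other subunits in the list were Prkag1, which fell by 0.39, and Prkag3 (0.02, adjusted p = 0.901), Prkag2 (-0.09, adjusted p = 0.455) and Prkab1 (0.10, adjusted p = 0.366), which did not pass. The other catalytic subunit, Prkaa1, was the regulator that rose, by 0.25 (SE 0.06, adjusted p = 0.0206), a call kept in 6 of the 12 refits. Also named after their values were seen, 5 of 7 PPAR, RXR and ERR receptors in the list fell, Ppara by 0.54, Rxra by 0.51, Esrrg by 0.36, Esrra by 0.35 and Ppard by 0.33. Rxrb (-0.26, adjusted p = 0.088) and Rxrg (-0.23, adjusted p = 0.0897) did not pass, nor did Pparg (0.15, adjusted p = 0.245), which stands in the adipocyte list. Ppara was dim, with means of 5.255 on control and 4.715 on Gadd45a arrays, below the median brightness of 5.87. Ppard lay around that median, with means of 5.944 on control and 5.612 on Gadd45a arrays. Of the 12 refits, the call was lost in 4 for Ppard, 3 for Esrrg, 2 for Esrra and 0 for Ppara and for Rxra. The 11 falls among regulators became 7 without the arrays numbered 2 or those numbered 4.

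Lists of other lipid genes gave smaller shares. Over all 7 lists, the regulators included, 33 of 100 measured genes fell and 8 rose, with a median of -0.18. The count of falls was 16 without the arrays numbered 2, 17 without those numbered 4 and 21 without those numbered 1. It was 22 without those numbered 3 or without Gadd45a array 2. Of 9 other genes of uptake and transport 2 fell and 0 rose. Vldlr, a receptor for triglyceride-rich lipoproteins, read 9.67, 9.52, 9.38 and 9.68 on control arrays 1 to 4 and 8.29, 8.18, 8.47 and 8.20 on Gadd45a arrays 1 to 4, a wide gap (log2 fold change -1.28, SE 0.10, adjusted p = 7.45e-05). Gpihbp1, the endothelial protein that anchors lipoprotein lipase in capillaries, fell by 0.35 (SE 0.08, adjusted p = 0.0158).

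The list of other mitochondrial acyl-CoA enzymes and related genes also holds genes of other compartments, such as the peroxisomal Nudt19. Of its 15 measured genes 6 fell and 0 rose (median -0.25). Each of the 12 refits gave fewer falls: 1 without the arrays numbered 2, 2 without those numbered 4 or without Gadd45a array 2, 3 without those numbered 1, control array 4 or Gadd45a array 4, and 4 or 5 in the others. The largest of these falls were in the coenzyme A hydrolase Nudt19 (-0.66, SE 0.16), in Pdk4, the kinase that shuts pyruvate dehydrogenase when fat is burned (-0.49, SE 0.14), and in the uncoupling protein Ucp3 (-0.47, SE 0.12). Of the 12 refits, their calls held in 9, 3 and 6. In the separate list of peroxisomal oxidation 3 of 15 genes fell and 1 rose (median -0.15), where 10.3% of all probe sets fell and 10.8% rose. Abcd2, which imports very long chain fatty acids, fell to 50.5% of the control level (-0.99, SE 0.09, adjusted p = 0.000115), and Phyh, the hydroxylase that starts phytanic acid breakdown, by 0.78 (SE 0.07, adjusted p = 0.000149). Scp2, a sterol carrier and thiolase, fell by 0.35, and the oxidase Acox3 rose by 0.31 (adjusted p = 0.0162).

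Other glyceride and lipid droplet genes moved both ways, 7 of 23 falling and 3 rising (median -0.12). The falls were 4, as many as the rises, after median centring. In the 12 refits they were 2 without the arrays numbered 3, 3 without those numbered 1, 2 or 4 or Gadd45a array 2, 4 without control array 3 or Gadd45a array 1, and 5 in the others. Lpin1, a phosphatidate phosphatase of triglyceride synthesis and also a coactivator, read 8.09, 8.12, 8.00 and 7.93 on control arrays 1 to 4 and 7.21, 7.02, 7.23 and 6.94 on Gadd45a arrays 1 to 4 (-0.93, SE 0.09, adjusted p = 0.000148). Abhd5, the activator of Pnpla2, fell by 0.50 (adjusted p = 0.00254) and the droplet protein Fitm1 by 0.48 (adjusted p = 0.039). Against these, the droplet coat gene Plin2 read 8.32, 8.22, 8.10 and 8.25 and then 8.84, 8.76, 8.91 and 8.93, rising without overlap by 0.64 (SE 0.07, adjusted p = 0.000427). The acyltransferases Mogat1 (0.48, adjusted p = 0.0283) and Agpat3 (0.40, adjusted p = 0.00393) also rose. Mogat1 was dim, with means of 3.92 on control and 4.41 on Gadd45a arrays, below the median brightness of 5.87. Of the 12 refits, Fitm1 kept its call in 3 and Mogat1 in 4. Plin2 is made by lipid-laden macrophages among many cells, and the higher macrophage marker sums on the same arrays are given above; their part was not tested.

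Genes of fatty acid synthesis and desaturation were split, 3 of 13 falling and 3 rising (median 0.03). Over all probe sets 10.3% fell and 10.8% rose. In the refits the falls were 1 without the arrays numbered 1 or 4, and the rises 1 without those numbered 2 or 3. Thrsp, linked to lipogenesis, rose by 0.64 (SE 0.08, adjusted p = 0.000439), and the elongases Elovl5 and Elovl1 by 0.38 each. The desaturase Scd1 fell by 0.57 (SE 0.14, adjusted p = 0.0184), the glucose-sensing factor Mlxipl by 0.41 (SE 0.06, adjusted p = 0.00235) and the sterol-regulated factor Srebf1 by 0.28 (adjusted p = 0.0357) with overlapping groups. Of the 12 refits, Srebf1 kept its call in 2 and Elovl5 in 6. Of 3 measured genes of ketone body use, the dehydrogenase Bdh1 fell by 0.65 (SE 0.16, adjusted p = 0.0212), a call kept in 7 of the 12 refits. Its means were 5.62 on control and 4.97 on Gadd45a arrays, below the median brightness of 5.87.

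**Figure D5:**
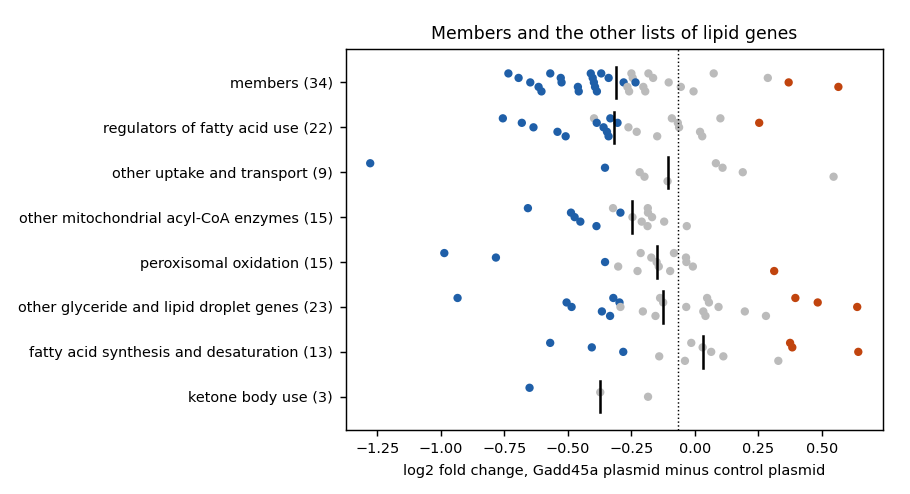
Log2 fold change with Gadd45a over control plasmid (x axis) of each measured gene in the 34 genes and in the 7 lists of other lipid genes (y axis, number measured in brackets). Blue points fell and orange points rose at an adjusted p under 0.05, grey points did not pass, black bars are medians and the dotted line is the median of all probe sets; the bars run from -0.37 for ketone body use to 0.03 for synthesis and desaturation.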

How the data were processed

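RNA was measured on 8 microarrays, 4 per group. The authors deposited a log2 intensity for every probe set on every array. GCOS and RMA are the tools named in the submitters' processing notes, which give mm9 as the build and no version. RMA quantile-normalizes arrays and summarises probes, which removes differences in overall brightness and compresses small changes of dim and bright probe sets. Array medians ran from 5.852 to 5.919. Groups came from the titles. Gene names came from the array's annotation, with 14996 of 16755 probe sets holding 1 symbol, 1019 several and 740 none listed; a gene with several was read from the one brightest on average. The identifiers of all 34 genes were found in RefSeq.

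Differences were tested with limma 3.58.1 in R 4.3.3 (lmFit, eBayes, two-sided, no block for the sample number), with Benjamini-Hochberg adjustment over all probe sets and a threshold of 0.05; SE is the moderated standard error. The fit was tested on simulated data with 100 probe sets changed by 0.5 and 100 by 1 on the log2 scale. It recovered 55% and 87% of them, and 9 unchanged probe sets were called. With no change added, 0 of 16755 probe sets were called. Differences between genes used an exact permutation test. No set test was run, and lists are given by counts and medians. Members, lists, pairs and tests were chosen with earlier results of these data known. Named were all measured members, Gadd45a, and up to 3 rises and 3 falls with the largest changes per list. Up to 2 of each per marker list were also named, of which Adipoq, Ckm and Mb are printed. Acta1, the nuclear receptors, Ppargc1b, Prkab1 and the Prkag family were picked once their values were known. The planned rule for printing promoters, a called gene with the direct repeat or TCAAGGTCA, gave 0 genes, so the hexamer was used instead; that choice was made after seeing the matches. As alternatives, the sample number served as a block, values were renormalized in 3 ways, dim probe sets were left out, the variance model or array weighting was changed, genes were reduced to a single probe set or to their mean, the threshold was moved, and each array or same-numbered pair was omitted.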

Additional observations from a re-analysis of the deposited data

Results flagged for a closer look

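A sample far from the other 3 of its group was seen in 4 of 154 groups of 4 arrays, which cover the 34 genes and the other named genes; chance alone gives about 1 in 20. For Acsl5, control array 1 read 7.01 against 7.35 to 7.41 on the other controls. For Mgll, control array 2 read 6.12 against 6.26 to 6.28. For Dgat1, Gadd45a array 4 read 6.56 against 6.45 on the other 3. For Ppargc1a, Gadd45a array 3 read 8.85 against 8.66 to 8.69.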

How the results depend on the processing

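The median of the 34 genes kept its sign in every fit run, from -0.34 to -0.28 when arrays or pairs were left out and from -0.31 to -0.27 under the other alternatives. Among the alternatives with all arrays at a threshold of 0.05, 15 to 21 of the genes fell and 2 or 3 rose, against 19 and 2. At an adjusted p under 0.01, 9 fell and 1 rose, and in the other lipid lists 13 fell and 3 rose, against 33 and 8. Leaving out an array or a pair gave 7 to 17 falls and 1 to 2 rises among the 34 genes, and 16 to 31 falls and 3 to 8 rises in the other lists; over all probe sets 821 to 1516 fell and 1055 to 1666 rose, against 1728 and 1814. Fits without a pair have fewer arrays. With the sample number as a replicate block, 15 genes fell and 2 rose, and 0 pairs of genes passed when labels were permuted within same-numbered pairs, where the smallest possible exact p is 0.125 and none could pass. Under the block the falls of Slc27a1 (adjusted p = 0.0601), Slc27a4 (0.061), Cpt2 (0.079), Acaa2 (0.0711), Dgat2 (0.0639) and Srebf1 (0.0601) missed the threshold and Etfb passed (0.0493). Deviations of same-numbered arrays from their group means correlated at 0.045 to 0.097, each array best with its own number, which is a hint from the data that the labels do not state. Signs turned for genes near 0: Eci2 was 0.017 after median centring and -0.086 to 0.047 when arrays or pairs were left out, Dgat1 ran from -0.033 to 0.145, the difference Etfa minus Etfb from -0.08 to 0.053, and Slc27a1 minus Slc27a4 from -0.012 to 0.169. The cause was not tested. Cyclic loess, added after seeing the data, gave 18 falls and 2 rises. The number of arrays and the signal of dim probe sets limit what could be detected.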
